A study of Homo sapiens with 4 samples.

Results

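The genes described here are 10 members of the JAK and STAT signalling pathway: the 4 kinases JAK1, JAK2, JAK3 and TYK2, the 5 transcription factors STAT3, STAT4, STAT5A, STAT5B and STAT6, and the feedback inhibitor SOCS3. They were chosen by name, and every probe that carries one of these names on the array was used, which gave 13 probes for 10 of the 43305 genes measured. HN4 and HN30 are established human cell lines of head and neck squamous cell carcinoma (HNSCC), and the labels give no cisplatin for them. HN4/DDP and HN30/DDP are their cisplatin-resistant derivatives (CR-HNSCC), selected under stepwise increasing doses of the DNA-damaging platinum drug cisplatin and held in medium with 20 μM of it for 48 h. The comparison asks which genes differ between resistant cells and the line they came from. By the labels only the resistant cultures were in cisplatin, so acquired resistance and current exposure to the drug cannot be told apart. Total RNA of each of these 4 cultures was labelled with Cy3 and read on 1 Agilent expression array.

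JAK kinases sit on the inner tails of cytokine receptors. When a cytokine binds, they phosphorylate the receptor and then STAT proteins, which pair up, enter the nucleus and switch on target genes, among them SOCS3, which shuts the receptor complex down. JAK1, JAK2 and TYK2 are made in most cells, while JAK3 and STAT4 are known mainly from lymphoid cells, where JAK3 serves receptors with the common gamma chain and STAT4 carries the signal of IL-12. STAT3 is often active in HNSCC.

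The results turn on JAK3 and STAT4, which have 2 probes each, so their probe sequences are shown, on the strand of the transcript. The last 30 bases of each JAK3 probe follow, with AATAAA, the usual polyadenylation signal, in capitals. Both probes carry the same RefSeq accession, NM_000215, lie on the minus strand of chromosome 19 in hg19 and start 1683 bases apart.
JAK3, brighter probe, chr19:17935597-17935656: atgtttgttgactgAATAAAggaattcagt
JAK3, dimmer probe, chr19:17937280-17937339: gaagcaaggaaccaaatttaagactctcgc
AATAAA stands in the brighter probe, whose position is the nearer of the pair to the end of the transcript, and not in the 60 bases of the dimmer one. The motif was searched as printed, on the transcript strand only, and 7.85% of the 58201 probes on the array hold it, including 2 of the 13 member probes.

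The STAT4 probes are given whole, in lower case with no part marked, because they lie far apart in the gene and gave similar differences. They carry the accession NM_003151 and lie on the minus strand of chromosome 2, with starts 115678 bases apart.
STAT4, brighter probe, chr2:191895703-191895762: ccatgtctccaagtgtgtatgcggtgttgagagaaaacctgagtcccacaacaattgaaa
STAT4, dimmer probe, chr2:192011381-192011440: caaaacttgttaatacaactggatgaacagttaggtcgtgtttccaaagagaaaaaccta
Which exon or untranslated region each probe covers was not looked up, since no hg19 annotation was used here.

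The value of a probe is log2 of its processed signal minus the 75th percentile of the array, so that 0 is the brightness which 75% of the probes do not reach. That percentile was a signal of 494 in HN4 against 496 in HN4/DDP, and 444 in HN30 against 480 in HN30/DDP. Of all spots, HN4 had 57.2% well above background, HN4/DDP 59.0%, HN30 55.3% and HN30/DDP 63.6%. All 13 member probes were well above background on all 4 arrays. Since each condition has a single array, no difference here has a replicate check, and the SD given beside it comes from the error model of the scanner and leaves out the variation between cultures. Probes differ in how well they bind, so the members' values are not compared between probes, and the sums and brightest genes of the marker lists below describe signal and not amounts of RNA. Each array measured a whole culture, so fewer cells expressing a gene and less RNA per cell cannot be told apart.

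The squamous label was set against 10 epithelial markers. All 10 were well above background on the HN4, HN4/DDP and HN30 arrays and 9 on the HN30/DDP array, where keratin KRT6A was not. Their summed signal, in multiples of the 75th percentile, was 273 in HN4 against 283 in HN4/DDP, and 268 in HN30 against 171 in HN30/DDP, with SFN (stratifin) the brightest on every array. Single keratins differed widely and in both directions. KRT5 was lower in both lines, by -4.05 in HN4/DDP and -1.93 in HN30/DDP. KRT6A was higher by 3.32 in HN4/DDP, and in HN30 it stood at 2.57 against -5.87 in HN30/DDP. In HN4/DDP KRT17 was also higher by 3.29 and KRT14 by 2.33.

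Because lymphoid cells make JAK3 and STAT4, leukocyte markers are given beside them. Of 9 measured markers, HN4 had 5 well above background, HN4/DDP 7, HN30 6 and HN30/DDP 7. The B-cell marker MS4A1 was not well above background on any array. PTPRC, which encodes the leukocyte antigen CD45, stood at -2.84 in HN4 against -2.94 in HN4/DDP, and -3.10 in HN30 against -2.94 in HN30/DDP, so its 4 values lay close together. The T-cell genes did not move together. CD3D was at -3.35, -3.46, -3.17 and -3.84 in the same order, CD3E was well above background in HN30/DDP only, at least 1.38-fold higher than in HN30, and CD2 was at least 1.42-fold lower there. NKG7 was well above background on both resistant arrays and on neither parental one, with differences of 0.97 (scanner SD 0.71) and 0.23 (scanner SD 0.43). The summed signal of the list was 33.8 in HN4 against 107 in HN4/DDP, and 42.2 in HN30 against 62.6 in HN30/DDP. Its brightest gene was LCP1, an actin-bundling protein that carcinoma cells also make, except in HN30/DDP, where it was CD14. Without LCP1 the sum was 7.29 in HN4 against 10.3 in HN4/DDP. In the HN30 pair the brightest gene differs, so the sums without it cover unlike genes and give no difference. They were 4.46 in HN30 without LCP1 and 23.2 in HN30/DDP without CD14. The second sum still holds LCP1, which stood at 5.24 in HN30 against 4.48 in HN30/DDP. CD14, the co-receptor for lipopolysaccharide, was at 2.63 in HN4 against 3.19 in HN4/DDP, and 1.82 in HN30 against 5.30 in HN30/DDP. The part of the LCP1 and CD14 signals in the member values was not tested. Of 8 fibroblast and endothelial markers, HN30/DDP had 5 well above background and each of the other arrays 4, and in the order HN4, HN4/DDP, HN30 and HN30/DDP the summed signals were 0.644, 1.33, 0.430 and 1.04. Like JAK3 and STAT4, 2 of them were higher in both resistant lines: COL1A1 by 1.73 and 2.43, and VWF at least 5.37-fold in the HN4 pair and by 1.49 in the HN30 pair. CDH5 was lower in both, with differences of -0.62 and -0.59. PECAM1 was at least 2.05-fold lower in HN4/DDP and at least 1.64-fold higher in HN30/DDP, and PDGFRB differed by -0.01 and 0.63. COL1A1 was the brightest of the list except in HN30, where it was CDH5, and the fibroblast markers COL1A2, DCN and LUM were not well above background on any array.

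JAK3, the kinase of the common gamma chain receptors, was the member that differed most with each gene at its brighter probe. At the dimmer probes STAT4 differed more than JAK3 in both lines. The brighter JAK3 probe stood at -1.17 in HN4 against 2.11 in HN4/DDP, and -2.17 in HN30 against 3.80 in HN30/DDP. Both resistant arrays lay above both parental arrays, and no neighbours in the order of their levels were within 2 scanner SDs of each other. The difference was 3.28 in the HN4 pair (scanner SD 0.21), or 9.73-fold, and 5.98 in the HN30 pair (scanner SD 0.21), or 63.0-fold. Among the 22149 genes well above background on all 4 arrays, these differences ranked 94 from the top in HN4/DDP and 3 from the top in HN30/DDP.

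The dimmer JAK3 probe gave the same order of arrays with much smaller differences. It stood at -3.78 in HN4 against -3.12 in HN4/DDP, and -3.82 in HN30 against -2.27 in HN30/DDP, and the 2 parental values were within 2 scanner SDs. The difference was 0.66 in the HN4 pair (scanner SD 0.26) and 1.55 in the HN30 pair (scanner SD 0.27), or 1.58-fold and 2.93-fold. The probes of JAK3 therefore disagreed in size, and their mean gave 1.97 in HN4/DDP and 3.76 in HN30/DDP. On the parental arrays this probe is dim, where the lowest value well above background was -4.76 in HN4 and -4.63 in HN30. The cause of the gap between the probes was not tested.

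JAK1 and JAK2 differed by less than 1 in both lines. JAK1, which serves most cytokine receptor classes, stood at -0.28 in HN4 against -0.14 in HN4/DDP, and -0.28 in HN30 against -0.69 in HN30/DDP, and neighbours in the order of their levels were within 2 scanner SDs of each other. JAK2, the kinase of the erythropoietin and growth hormone receptors, was at -1.31, -0.93, -1.44 and -0.86 in the same order of arrays. Its difference was 0.39 in the HN4 pair (scanner SD 0.21) and 0.57 in the HN30 pair (scanner SD 0.21), above 0 in both lines under the 5 other ways that change the value of a gene with 1 probe, down to 0.15 in HN30/DDP with scaling to the median.

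TYK2, the kinase of the type I interferon and IL-12 receptors, differed in opposite directions. It stood at -2.29 in HN4 against -1.74 in HN4/DDP, and -1.98 in HN30 against -2.82 in HN30/DDP, so that HN30/DDP was the lowest array and stood apart from the rest by more than 2 scanner SDs. The difference was 0.55 in the HN4 pair (scanner SD 0.21) and -0.84 in the HN30 pair (scanner SD 0.22). The sign was the same in each line under the 5 other ways that change it. In HN30/DDP 3 of them put TYK2 past -1: quantile normalization with -1.23, scaling to the median with -1.26 and the deposited log2 values with -1.22. Normexp background correction shrank it to -0.52.

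**Figure D1:**
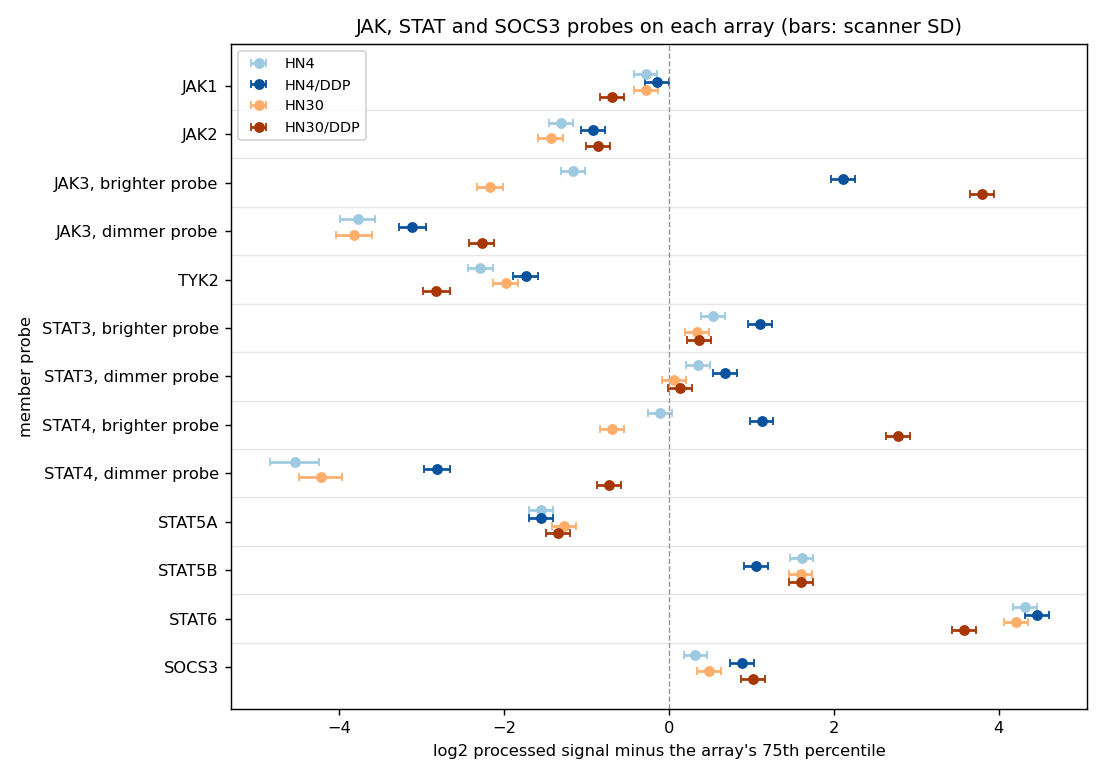
Values of the 13 member probes on the 4 arrays, as log2 of the processed signal minus the array's 75th percentile, with bars for the scanner SD. Each point is 1 array. The resistant arrays of JAK3 and STAT4 lie to the right of the parental ones at both probes, from -2.17 in HN30 to 3.80 in HN30/DDP for the brighter JAK3 probe, while the 4 values of STAT5A span 0.28.

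STAT4 was the only STAT member past a difference of 1 in the reported values, and it stayed past 1 in both lines under the 6 other ways that change it. Its brighter probe stood at -0.11 in HN4 against 1.12 in HN4/DDP, and -0.69 in HN30 against 2.78 in HN30/DDP. As with JAK3, both resistant arrays lay above both parental arrays, with no neighbours within 2 scanner SDs. The difference was 1.23 in the HN4 pair (scanner SD 0.20), or 2.35-fold, and 3.47 in the HN30 pair (scanner SD 0.20), or 11.1-fold, ranks of 920 and 172 from the top among the 22149 genes.

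The dimmer STAT4 probe stood at -4.54 in HN4 against -2.82 in HN4/DDP, and -4.23 in HN30 against -0.73 in HN30/DDP. Its difference was 1.73 in the HN4 pair (scanner SD 0.34) and 3.50 in the HN30 pair (scanner SD 0.30). In HN30 the probes thus gave 3.47 and 3.50, and in HN4 1.23 and 1.73, unlike the pair of JAK3 probes. The parental values of the dimmer probe lay close to the lowest values well above background.

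STAT3, which carries the signal of IL-6 and related cytokines, stood at 0.53 in HN4 against 1.1 in HN4/DDP, and 0.34 in HN30 against 0.37 in HN30/DDP at its brighter probe. HN4/DDP stood apart from the others by more than 2 scanner SDs, with a difference of 0.57 from HN4 (scanner SD 0.20), and the dimmer probe gave 0.32 (scanner SD 0.20). In HN30/DDP the difference was 0.03 at the brighter probe and 0.07 at the dimmer one, both below the scanner SD, and with scaling to the median the first was -0.39.

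STAT5A and STAT5B transmit prolactin, growth hormone and common gamma chain signals, and their probes lie 112228 bases apart on chromosome 17. STAT5A stood at -1.55 in HN4 against -1.55 in HN4/DDP, and -1.27 in HN30 against -1.35 in HN30/DDP, and no neighbours in the order of their levels differed by 2 scanner SDs. STAT5B stood at 1.61 in HN4 against 1.06 in HN4/DDP, and 1.60 in HN30 against 1.61 in HN30/DDP. It was lower in HN4/DDP than in HN4 by a difference of -0.55 (scanner SD 0.20), with the same sign under the 5 other ways that change it. In HN30/DDP its difference of 0.01 was below the scanner SD and ran from -0.41 to 0.31 over them.

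STAT6, the factor of IL-4 and IL-13, stood at 4.32 in HN4 against 4.46 in HN4/DDP, and 4.21 in HN30 against 3.58 in HN30/DDP. HN30/DDP was the lowest, with a difference of -0.63 from HN30 (scanner SD 0.20). The sign held under the 5 other ways that change it, and the size ran from -1.05 with scaling to the median to -0.16 with quantile normalization. The other 3 arrays were within 2 scanner SDs of their neighbours.

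SOCS3, the inhibitor that binds gp130 receptors and their JAK kinases, stood at 0.32 in HN4 against 0.88 in HN4/DDP, and 0.48 in HN30 against 1.02 in HN30/DDP. Both resistant arrays lay above both parental ones, with differences of 0.56 and 0.53 (scanner SD 0.20 each). In HN30/DDP the difference shrank to 0.11 with scaling to the median. No neighbours in the order of their levels differed by 2 scanner SDs.

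Of the 10 members, 2 (JAK3 and STAT4) were higher by more than 1 in HN4/DDP, beside 5.99% of the 22149 genes well above background on all 4 arrays, and the same 2 in HN30/DDP, beside 13.7% of these genes. The count of JAK3 in HN4/DDP rests on its brighter probe, as the dimmer one gave 0.66. Both were thus higher in both lines, beside 3.04% of these genes, and 0 members were lower by more than 1 in both, beside 1.87%. With the threshold of 2 that the study used, 1 member (JAK3) was higher in HN4/DDP, beside 1.5%, and 2 in HN30/DDP, beside 4.48%. Lower by more than 1 were 0 members in HN4/DDP, beside 6.7% of genes, and 0 in HN30/DDP, beside 14.6%. The other 8 members stayed within 1 in both lines, with TYK2 and STAT6 as exceptions in HN30/DDP under the settings named above. The median difference of the members was 0.47 in HN4/DDP, beside -0.09 over these genes, and 0.02 in HN30/DDP, beside -0.07. Since JAK3 and STAT4 were known to be high in earlier results of these data, the counts describe the members and are no test.

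**Figure D2:**
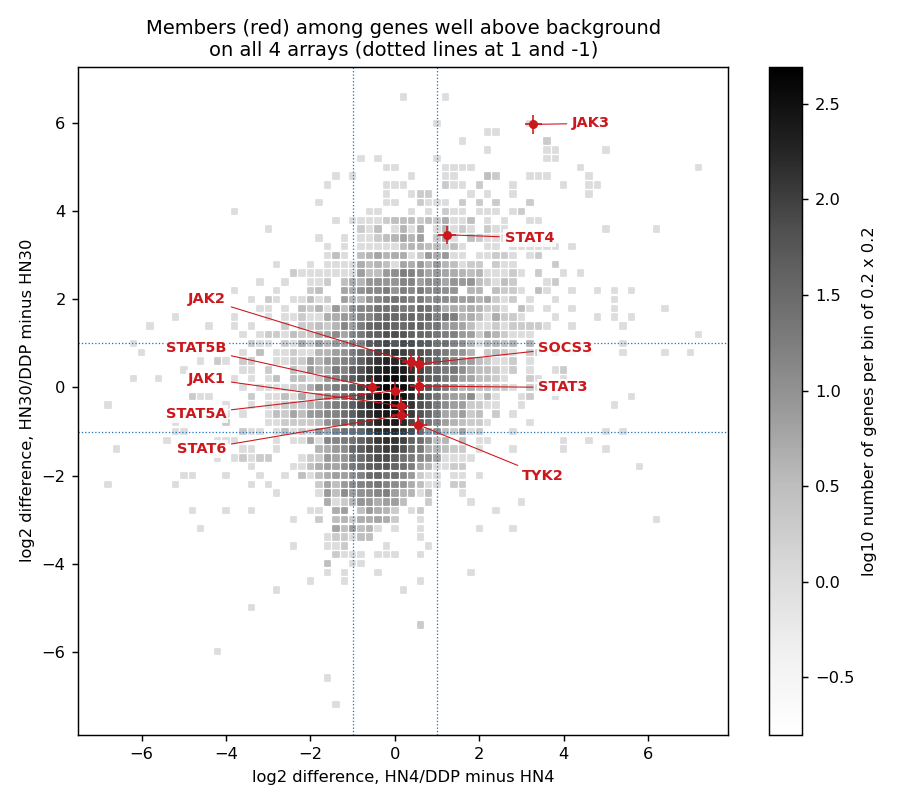
Differences of the 10 members (red, brighter probe, bars for the scanner SD) in the HN4 pair on the horizontal axis and the HN30 pair on the vertical axis, both in log2. Grey squares count the 22149 genes well above background on all 4 arrays in bins of 0.2. JAK3 (3.28 and 5.98) and STAT4 (1.23 and 3.47) lie past the dotted lines at 1, and the other 8 members lie between the lines at -1 and 1, which TYK2 and STAT6 cross in HN30/DDP under other scalings.

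Scaling matters most in HN30/DDP, the array with the largest share of spots above background. Scaling to the median in place of the 75th percentile moved the median difference of all genes there from -0.07 to -0.49, and the genes past 1 among the 22149 from 3036 higher and 3223 lower to 1918 higher and 5972 lower. In HN4/DDP the median of all genes was -0.21, and -0.01 with quantile normalization. Relative to the median of the 22149 genes, which removes the choice between those percentiles, the HN30/DDP difference was 6.05 for JAK3, 3.54 for STAT4, -0.77 for TYK2 and -0.56 for STAT6. In HN4/DDP the relative difference was 3.38 for JAK3 and 1.33 for STAT4.

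**Figure D3:**
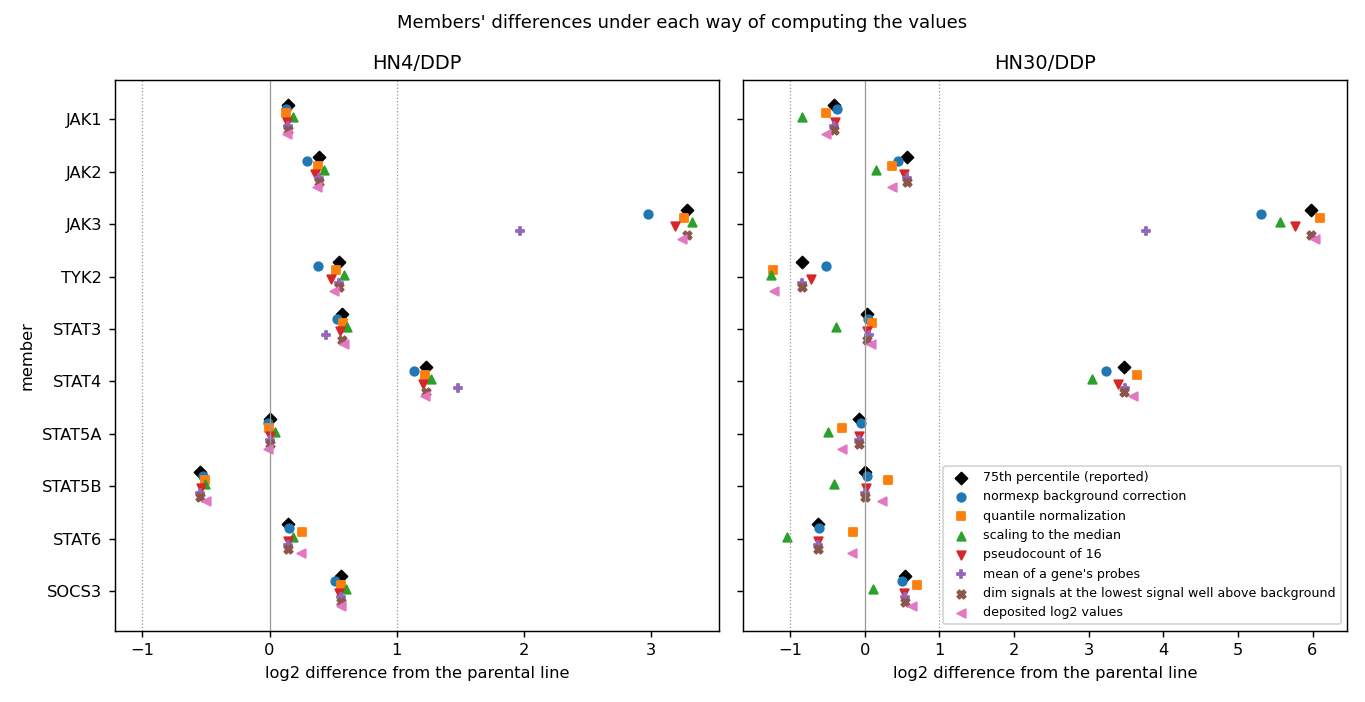
Differences of the 10 members from the parental line, in log2, for the HN4 pair (left) and the HN30 pair (right), as reported and under 7 other ways of computing the values. JAK3 and STAT4 lie past 1 under each of them, JAK3 from 1.97 to 3.32 in HN4/DDP and from 3.76 to 6.10 in HN30/DDP. TYK2 falls on either side of -1 in HN30/DDP.

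The only contrast with replication sets 2 resistant against 2 parental arrays in limma, with a term for the cell line, and leaves 1 residual degree of freedom for each gene. At an adjusted p threshold of 0.05 it called 0 of 29521 genes (0%), and 2537 had an unadjusted p below 0.05. The fit took each gene at its brightest probe. JAK3 was higher by 4.63 (SE 0.75, adjusted p = 0.417 by limma), and higher in both of the lines. Its dimmer probe, with differences of 0.66 in HN4/DDP and 1.55 in HN30/DDP, was not fitted in this or any other setting. STAT4 was higher by 2.35 (SE 0.67, adjusted p = 0.510 by limma), also in both lines. The adjusted p of the other members lay between 0.762 for SOCS3 and 0.985 for STAT5A. With scaling to the median limma called 297 genes, 242 higher and 55 lower, and JAK3 was the 1 member among them (adjusted p = 0.0100). Over the 7 other settings of the fit, the adjusted p of JAK3 ran from 0.0100 to 0.669 and that of STAT4 from 0.193 to 0.669.

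The factor STAT2, which carries interferon signals, is outside the 10 genes. It differed by 0.31 in HN4/DDP and 0.87 in HN30/DDP, where it was past 1 with quantile normalization (1.34) and the deposited log2 values (1.30) and at 0.45 with scaling to the median.

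The other genes of the pathway were taken as lists by role. Over all 43305 genes, 5.77% were higher and 5.36% lower by more than 1 in HN4/DDP, and 12.9% were higher and 8.67% lower in HN30/DDP, with a median difference of -0.21 in HN4/DDP and -0.07 in HN30/DDP. The lists are small, so a single gene moves their share a lot, and nothing is called particular to a list. Where the dimmer array of a pair had no signal well above background for a gene, the lowest value well above background on that array, or the gene's own where higher, took its place and the change is given as at least N-fold. These bounds hold for the background subtraction of the scanner output only, and with normexp background correction the differences can fall below them. A gene can be counted as past 1 while this bound is under 2-fold, and the counts with dim signals at that floor are given where they differ. Counts also depend on the scaling and the background: scaling to the median shifts every HN30/DDP difference by -0.42 and lowers these bounds there, that of GHR to below 1. Of STAT2 and the list genes named below, those named after their values were seen aside, 24 were counted as past 1 in HN30/DDP. Of these, 20 stayed past 1 with scaling to the median and 13 with normexp background correction. In HN4/DDP 20 were counted, of which 20 and 10 stayed. None of them changed sign. With scaling to the median the HN30/DDP median of each of the 4 receptor lists fell below 0.

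Of 16 negative regulators beside SOCS3, all well above background on all 4 arrays, 0 were higher and 0 lower in HN4/DDP, and 1 was higher and 2 lower in HN30/DDP. Their median difference was -0.06 in HN4/DDP and -0.14 in HN30/DDP. SOCS1, which blocks JAK kinases directly, differed by 0.97 in HN4/DDP and 1.50 in HN30/DDP. SOCS6 differed by 0.01 and -1.86, and the phosphatase PTPN2, which removes phosphate from JAK1, JAK3 and STAT proteins, by -0.94 and -0.71. The other gene counted as lower in HN30/DDP, named after its values were seen, was PTPN11, with -0.31 and -1.39.

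Receptors with the common gamma chain are the partners of JAK3. The list also holds the IL-13 receptors IL13RA1 and IL13RA2, which are not. Of its 10 genes, 2 were higher and 1 lower in HN4/DDP and 3 higher and 1 lower in HN30/DDP, which became 1 higher in HN4/DDP and 0 in HN30/DDP with dim signals at the floor. The medians were 0.08 and 0.38, and -0.22 and 0.14 over the 6 genes well above background on all 4 arrays. IL7R, the receptor chain for IL-7, was the lower one in both lines: it stood at 3.69 in HN4 against -1.27 in HN4/DDP, and 3.97 in HN30 against 1.99 in HN30/DDP. Its difference was -4.96 (scanner SD 0.21) and -1.98 (scanner SD 0.20), opposite in sign to JAK3. IL21R, the receptor for IL-21, was at least 2.58-fold higher in HN4/DDP and at least 1.81-fold higher in HN30/DDP, being well above background on the resistant arrays only. IL13RA2, a decoy receptor for IL-13, was at least 1.81-fold higher in HN4/DDP, and IL2RB, a chain of the IL-2 and IL-15 receptors, at least 1.40-fold higher in HN30/DDP.

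Of 12 genes of the gp130 receptor family, which signals mainly through STAT3, 2 were higher and 0 lower in HN4/DDP, and 3 were higher and 1 lower in HN30/DDP, with medians of -0.14 and 0.39, the second being 0.78 over the 9 genes well above background on all 4 arrays. This list also holds the receptor chains of IL-12 and IL-23, through which STAT4 is activated, and 2 of its genes were not well above background on any array. LIFR, the receptor for leukemia inhibitory factor, was higher by 2.92 in the HN4 pair (scanner SD 0.25) and at least 3.81-fold higher in HN30/DDP. IL6R, the IL-6 receptor, differed by 2.35 in HN4/DDP and 0.88 in HN30/DDP, while IL11RA, the IL-11 receptor, differed by 0.37 and 2.34. The gene counted as lower in HN30/DDP, named after its values were seen, was IL6ST, which encodes gp130, with -0.92 and -1.13.

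Among 9 receptors, most of them with the common beta chain or built of identical chains and signalling through JAK2, 2 were higher in HN4/DDP and 3 in HN30/DDP, or 1 and 1 with dim signals at the floor, 0 were lower in either line, and the medians were 0.13 and 0.06. CSF2RA, the receptor for GM-CSF, was higher by 1.21 in HN4/DDP and at least 1.68-fold higher in HN30/DDP. IL3RA was at least 1.51-fold higher in HN4/DDP and differed by 0.37 in HN30/DDP, EPOR, the erythropoietin receptor, differed by 0.13 and 1.58, and GHR, the growth hormone receptor, was at least 1.17-fold higher in HN30/DDP.

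Of 10 type II receptors, which bind interferons and the IL-10 family and use JAK1 with TYK2 or JAK2, 2 were higher and 4 lower in HN4/DDP and 2 higher and 1 lower in HN30/DDP, with medians of -0.15 and 0.03, and of -0.53 and -0.19 over the 9 genes well above background on all 4 arrays. In HN30/DDP the median over the whole list ran from -0.39 with scaling to the median to 0.55 where the probes of each gene were averaged. IFNAR1, the type I interferon receptor chain to which TYK2 binds, was lower in both lines, with differences of -1.10 (scanner SD 0.21) and -1.90 (scanner SD 0.21). IL10RA, the IL-10 receptor, was at least 2.94-fold higher in HN4/DDP and at least 3.41-fold higher in HN30/DDP. IL20RB, a chain of the receptors for IL-20 and IL-24, differed by -2.82 in HN4/DDP and 1.90 in HN30/DDP.

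Of 12 ligands of the gp130 and IL-12 families, 3 were higher and 1 lower in HN4/DDP, and 5 were higher and 3 lower in HN30/DDP, with medians of 0.14 and 0.69. With dim signals at the floor 4 were higher in HN30/DDP. Neither median is stable: over the 9 genes well above background on all 4 arrays they were 0.42 and -0.50, and over the whole list the second was 0.09 with normexp background correction. EBI3, the shared chain of IL-27 and IL-35, was higher by 3.88 in the HN4 pair (scanner SD 0.21) and 2.39 in the HN30 pair (scanner SD 0.21), and IL11 by 1.04 and 3.22. CSF3, which encodes G-CSF, differed by -0.87 and -2.70. IL12A, a chain of the STAT4-activating cytokine IL-12, was at least 2.0-fold higher in HN4/DDP and differed by 0.59 in HN30/DDP.

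Of 21 other ligands, 8 were not well above background on any array, 2 were higher and 3 lower in HN4/DDP, and 4 were higher and 2 lower in HN30/DDP. With dim signals at the floor 1 was higher and 2 lower in HN4/DDP, and 1 higher and 1 lower in HN30/DDP. The interferon gene IFNL1 was at least 2.87-fold higher in HN4/DDP and at least 1.60-fold higher in HN30/DDP. IL7, whose receptor chain is described above, differed by -1.70 in HN4/DDP and -0.19 in HN30/DDP, while IL15, another common gamma chain ligand, differed by -2.77 and 1.25. CSF2, which encodes GM-CSF, differed by -0.12 and -2.41, and TSLP was at least 1.70-fold higher in HN30/DDP.

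Of 26 genes known as STAT targets, 5 were higher and 1 lower in HN4/DDP and 6 higher and 2 lower in HN30/DDP, with medians of 0.38 and 0.54. With dim signals at the floor 4 were higher in HN4/DDP and 5 in HN30/DDP. In HN30/DDP the median was 0.12 over the 22 genes well above background on all 4 arrays, and over the whole list 0.12 with scaling to the median and 0.22 with normexp background correction. CCND2, which encodes cyclin D2, was at least 4.96-fold higher in HN4/DDP and at least 14.1-fold higher in HN30/DDP, and with normexp background correction it differed by 1.17 and 1.97. BCL2L1, a survival gene, was higher by 1.17 and 1.01 (scanner SD 0.20 each), the second falling to 0.59 with scaling to the median, and HPGD, which breaks down prostaglandins, at least 1.42-fold and at least 1.86-fold. FOS differed by 2.84 and 0.67, and OSM, a STAT5 target and itself a ligand of the gp130 family, by 2.63 in HN30/DDP while it was not well above background on either array of the HN4 pair. The genes counted as lower, named after their values were seen, were VEGFA in HN4/DDP, and TFRC and FOSL1 in HN30/DDP. In HN4/DDP and HN30/DDP, VEGFA differed by -2.05 and 0.66, TFRC by -0.70 and -1.55, and FOSL1 by 0.78 and -1.64.

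**Figure D4:**
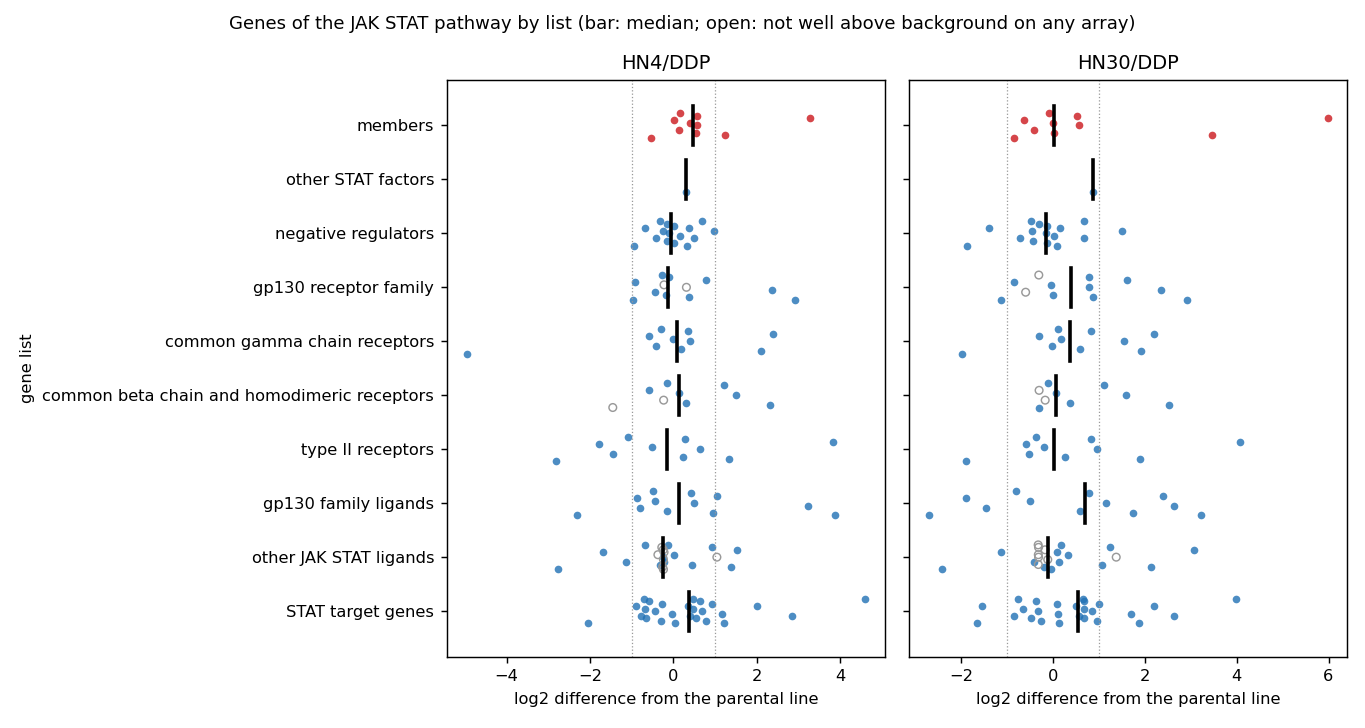
Differences of single genes from the parental line, in log2, by list, for the HN4 pair (left) and the HN30 pair (right). Each point is 1 gene, red for the 10 members and blue for the other lists, open circles are genes not well above background on any array, and black bars are medians. JAK3 is the rightmost point of the right panel at 5.98, IL7R the leftmost of the left panel at -4.96, and with this scaling every list but that of STAT2 alone has genes on both sides of 0 in the right panel.

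The genes with profiles most like that of the brighter JAK3 probe were sought among the 22149 genes well above background on all 4 arrays. Likeness was the Euclidean distance between the 4 values centred on each gene's mean. The dimmer JAK3 probe was not compared. The nearest were the transcript ENST00000449350 (distance 0.454), PTGS1, the cyclooxygenase 1 gene (0.495), CAPN5, a calpain protease (0.868), the transcript ENST00000548846 (0.938), and KIAA1257, now named CFAP92 (0.954). PTGS1 stood at -3.71 in HN4 against -0.01 in HN4/DDP, and -4.35 in HN30 against 1.09 in HN30/DDP, a difference of 3.70 and 5.43. STAT4, at its brighter probe, was at distance 2.30, rank 113 of these genes. Its differences had the same signs as those of the brighter JAK3 probe and smaller sizes.

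The promoters of the members were searched for STAT motifs in the 300 bases around each start, taken from RefSeq on GRCh38.p14, which held 19 windows for all 10 members. TTCNNNGAA, the general STAT motif, and TTCNNNNGAA, the form known for STAT6, both read the same on either strand. The first was in 0 of the 19 windows, beside 7.66% of 35116 windows of all genes, and the second in 1, of STAT5A, beside 6.44%. The absence of these letters from a window says nothing about binding elsewhere in the gene.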

How the data were processed

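The authors deposited the scanner output of 4 one-colour arrays as intensity per spot, made with Agilent Feature Extraction 10.7.1.1, which subtracted background and spatial trends within each array, with probe positions on hg19. Their deposited log2 table, whose arrays each have a median of 4.65 and identical quantiles, served as an alternative. Its differences correlated across probes with those computed here (r = 0.998 in the HN4 pair and 0.951 in the HN30 pair), while what preceded its quantile step is unknown. It held 0 columns of other samples.

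Here log2 of the processed intensity of 60901 non-control spots, without outlier spots, was scaled to the 75th percentile of each array. Spots of 1 probe were averaged. The probe brightest on average over the 4 arrays stood for each gene, unless the mean of its probes is named. This held for the members too in counts, ranks, medians and limma, while their values are also given probe by probe. A gene counted as higher where its difference exceeded 1 and the resistant array was well above background, and as lower where it was under -1 and the parental array was. limma 3.58.1 (R 4.3.3) used eBayes with a trend and Benjamini-Hochberg adjustment over 29521 genes with a signal well above background on any array. The code was tested on simulated data with equal spread in all genes and the same change in both lines. That test does not show how the fit performs on these arrays. Python 3.11.15 with pandas 2.3.3, numpy 2.4.6 and matplotlib 3.10.9 did the rest. All arrays lay on 1 slide and in 1 scan.

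The members and lists were chosen with earlier results of these data known. The genes named by rule are the members, STAT2, the 5 genes with profiles nearest the brighter JAK3 probe, and genes of the lists. From each list these are the genes past 1 the same way in both lines. Added to them are the 2 with the largest difference in each line, among those well above background on 1 of its arrays. Of these 47 genes, 45 matched RefSeq by accession and 2 kept the name on the array. Named outside this rule and count are PTPN11, IL6ST, IL2RG, VEGFA, TFRC, FOSL1, the marker genes and the genes beside JAK3 on the chromosome. Some genes of the lists are not reported here.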

Additional observations from a re-analysis of the deposited data

Results flagged for a closer look

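Whether the lines differ was not tested, since each has 1 pair of arrays. In 3 of the 42 members and list genes named by rule, the 2 lines differed from their parents in opposite directions, each by more than 2 scanner SDs. The same held for 13 of the 124 members and pathway genes, beside 8.26% of the 22149 genes well above background on all 4 arrays, and the named genes were chosen in part for large differences. TYK2 was the member among them: its difference in HN30/DDP minus that in HN4/DDP was -1.39. For IL20RB the same quantity was 4.72 and for IL15 4.02.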

How the results depend on the processing

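JAK3 and STAT4 stayed past 1 in both lines under the 6 other ways that change their values, none of which uses the dimmer probe alone. At that probe JAK3 differed by 0.66 in HN4/DDP, so its count there rests on the brighter probe. The difference of JAK3 was 2.97 in HN4/DDP and 5.31 in HN30/DDP with normexp background correction, 1.97 and 3.76 with the mean of its probes, and 5.56 in HN30/DDP with scaling to the median. STAT4 was higher by 1.48 in HN4/DDP with the mean of its probes and, in HN30/DDP, by 3.23 with normexp and 3.05 with scaling to the median. Members counted as higher in HN4/DDP numbered 1 with a threshold of 2, beside 1.5% of the 22149 genes. Members lower by more than 1 in HN30/DDP numbered 1 with quantile normalization, beside 13.2% of these genes, and 2 with scaling to the median, beside 27.0%. With the deposited values they numbered 1, and no share of genes is given for these. limma called 297 genes with scaling to the median and 0 with its 6 other settings. Beyond these alternatives' own arithmetic, the cause was not tested. Of 154 differences of single genes recomputed, 38 could not change or did not, 87 changed by less than their scanner SD and 29 by more. Of 144 list medians 21 did not change, and against the median scanner SD of the genes in the list, which differs between lists, 97 changed by less and 26 by more.

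No paired analysis was possible by replicate number, because the labels give replicate 1 alone in every condition. The limma fit pairs each resistant array with its parent through the cell line term. Signals near background limit the dimmer JAK3 and STAT4 probes and the receptors given by a lower bound. Batches of culture, extraction and labelling were not analysed here.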

Other observations

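The genes beside JAK3 on the chromosome were looked at after the member values had been seen. Within 250 kb of the brighter JAK3 probe, 13 other genes with a RefSeq probe were measured. INSL3, which encodes a hormone of the testis, is the nearest of them, with its probe 8.27 kb away on the same strand. It stood at -2.57 in HN4 against -0.09 in HN4/DDP, and -2.58 in HN30 against 1.02 in HN30/DDP, a difference of 2.49 in the HN4 pair (scanner SD 0.21) and 3.61 in the HN30 pair (scanner SD 0.22). In HN4/DDP it was the 1 gene of the 13 higher by more than 1, beside 5.77% of all genes, with SLC5A5 lower by a difference of -1.38, beside 5.36%. In HN30/DDP 2 were higher, INSL3 and FCHO1 (a difference of 3.63, and 0.51 in HN4/DDP), beside 12.9% of all genes, and 0 were lower, beside 8.67%. B3GNT3, on the other strand 11.8 kb from the JAK3 probe, differed by 0.04 and 0.95.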
